A study of Rattus norvegicus with 12 samples.

Results

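Integrins and laminins were followed in the liver of obese Zucker rats fed a supplement of oyster mushroom. The set holds every gene of the integrin alpha and beta chains and of the laminin alpha, beta and gamma chains that had a row with exactly 1 gene symbol on the array, chosen by symbol alone. It came to 32 genes of 18166 tested, of which 23 encode integrin chains and 9 laminin chains. Lama4 had 2 rows and was read from the one with the higher mean signal. Itgav, Itgae, Itgb3, Lamb1 and Lamb4 were among the family genes not analysed here.

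Liver RNA came from 12 male rats of the obese Zucker strain Crl:ZUC-Leprfa, all homozygous for the fa allele, a defective form of the leptin receptor gene. The control diet carried no supplement and was eaten by 6 of them, and the other 6 ate a diet of like energy and crude nutrient content with 5% PSC, the labels' name for the biotechnologically produced mushroom material. Feeding began at an age of 5 to 6 weeks and went on freely for 4 weeks, until the animals were killed on day 29. The trial had 12 rats per diet, of which 6 were drawn at random for the arrays. Each rat gave 1 array (Affymetrix Rat Gene 2.0 ST), no lean rats were among the samples, and the rats lived in pairs, so that cage mates among them would not be fully independent.

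Integrins are receptors in the cell membrane made of 1 alpha and 1 beta chain, which bind matrix proteins or counter-receptors outside the cell and link them to actin inside it. Laminins are cross-shaped trimers of an alpha, a beta and a gamma chain that form the first sheet of a basement membrane and are bound by several integrins. Healthy liver has little basement membrane along its sinusoids, and laminins there lie mainly around bile ducts and vessels. Hepatocytes, stellate cells, endothelial cells, bile duct cells and leukocytes each carry their own integrin chains.

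The members' signals differed little between the diets. Mean log2 signals (RMA values, on which a difference of 1 is a doubling) lay between 3.86 for Itga2 and 8.84 for Itgb1. None of the 32 members passed the test over all genes (0 members at an adjusted p below 0.05, limma with Benjamini-Hochberg adjustment, n = 6 per diet), where 2.6% of all genes did, 0.716% higher and 1.89% lower. At an adjusted p below 0.1 there were 4 members (12.5%, beside 6.28% of all genes), namely Itgax, Itgb1 and Lamc1, lower in PSC-fed rats (4.06% of all genes), and Lamc3, higher (2.21% of all genes). At an unadjusted p below 0.05 there were 8 members, or 25%, beside 19.1% of all genes (9.02% higher and 10.1% lower). Itgax, Itgb1, Lamc1, Itga4 and Itga5 were lower in PSC-fed rats among these 8, and Itgad, Lamc3 and Itga2b were higher. The log2 fold changes ran from -0.34 (Itga4) to 0.32 (Itgad), so that 0 members reached a fold of 1.3, which 2.91% of all genes did. The median was -0.018 for the members and 0.013 for all genes, and the median size regardless of sign was 0.081 and 0.090. Negative values were found for 18 members and for 46.1% of all genes, and other scalings of the arrays moved the first count between 17 and 21.

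The 95% interval of the difference lay inside a fold of 1.5 either way for all 32 members and inside a fold of 1.3 for 25 of them. The other 7 were Itgax, Itgb1, Lamc1, Itga4, Itga5, Itgad and Lamc3. The intervals reached from the estimate by between 0.12 (Itga1) and 0.30 (Itga2) on the log2 scale, with a median of 0.16. Changes smaller than these intervals could not be detected with 6 arrays per diet. The adjusted threshold asked for more: the 8 members with an unadjusted p below 0.05 had intervals without 0, yet none passed. A p that missed the threshold does not show equal levels.

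**Figure D1:**
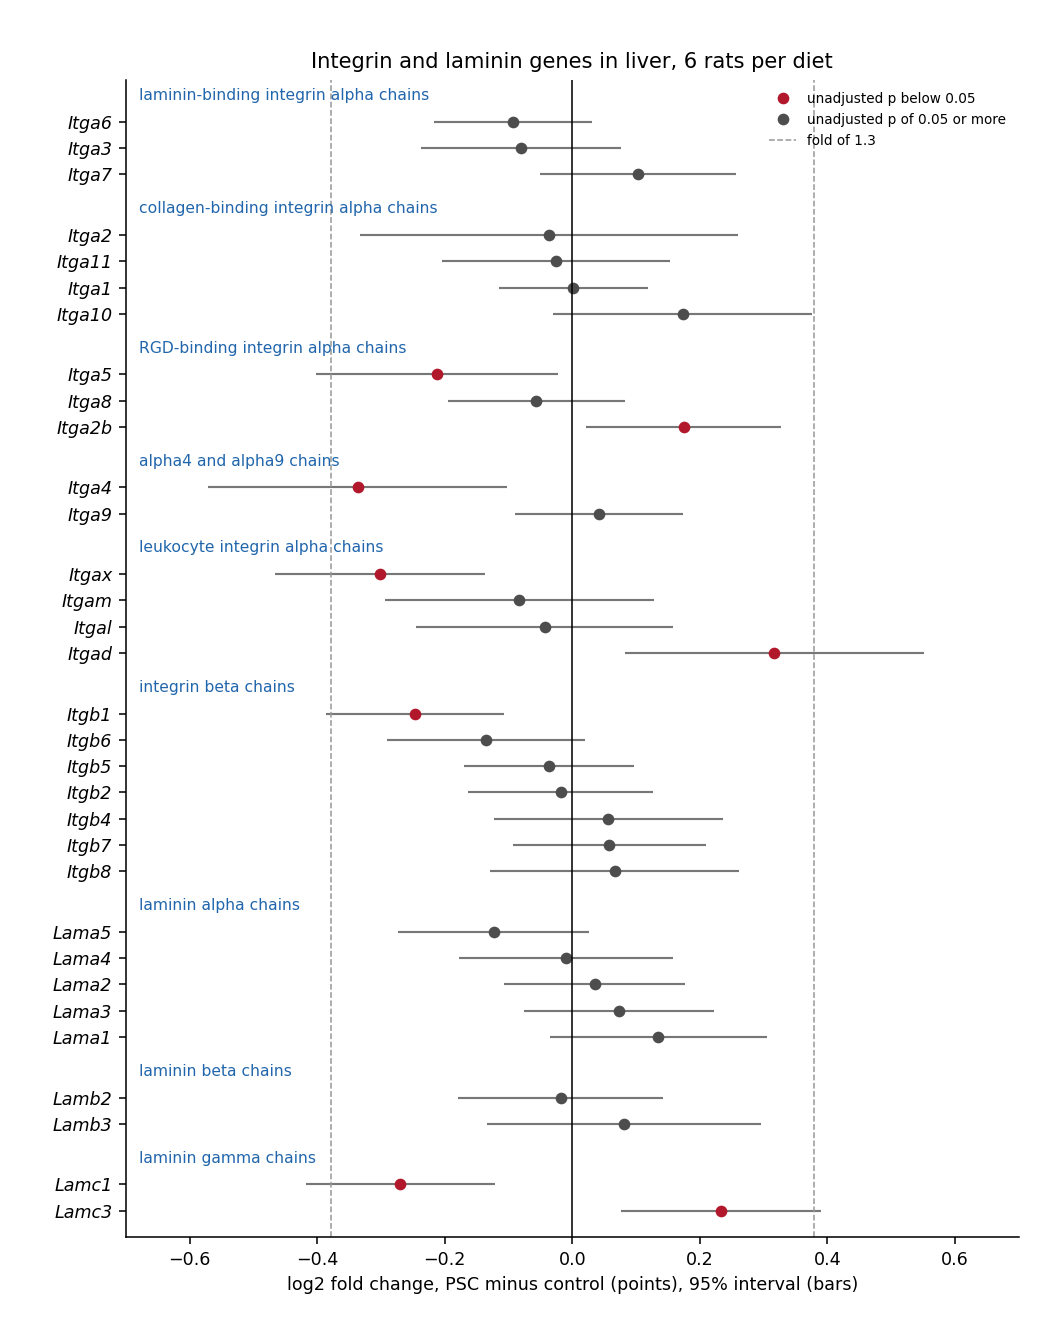
Log2 fold change of each of the 32 genes (points, PSC minus control) with its 95% interval (bars), grouped by the role of the chain; the dashed lines mark a fold of 1.3 either way. The points run from -0.34 for Itga4 to 0.32 for Itgad, all inside the dashed lines, and the 8 red points have an unadjusted p below 0.05.

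**Figure D2:**
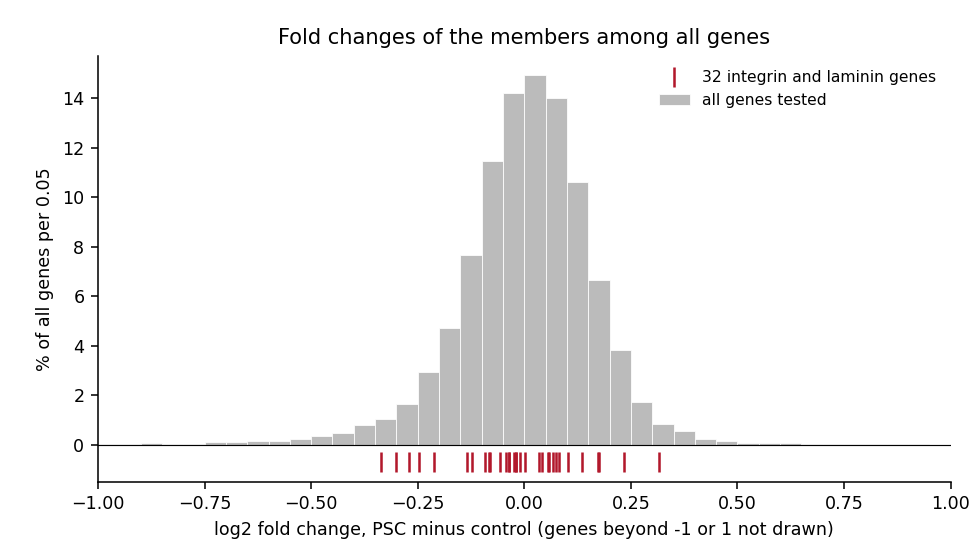
Histogram of log2 fold changes over all 18166 genes tested (bars, in percent of genes per 0.05) with the 32 integrin and laminin genes drawn as red ticks under it; genes beyond -1 or 1 are not drawn. The ticks spread around 0, with a median of -0.018 beside 0.013 for all genes.

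The arrays had median log2 signals of 4.71 to 4.78 in controls and 4.72 to 4.85 in PSC-fed rats. Their SDs over all clusters were 2.128 to 2.171 in controls and 2.109 to 2.154 in PSC-fed rats. Correlations between arrays were 0.986 to 0.994. The hepatocyte marker Alb averaged 13.16 in both diets. On the first principal component PSC replicate 4 lay at -1.57, between the other PSC arrays (6.68 or above) and the controls (-4.34 or below), and PSC replicates 2 and 5 stood highest on the second, at 21.24 and 11.72. Averaged over the 32 members after centring each gene, the arrays lay between -0.072 (PSC replicate 6) and 0.067 (control replicate 1). In whole liver, fewer cells of a type and less RNA per cell cannot be told apart.

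Itgb1 encodes the beta chain shared by the laminin, collagen and fibronectin receptors, and Lamc1 the gamma chain found in most laminin trimers. Itgax encodes the alpha chain of a complement receptor of dendritic cells and macrophages. These were the members nearest to the threshold, so the 250 bases before their RefSeq starts are shown (assembly GRCr8, read 5′ to 3′ on the gene's strand). The window of Itgb1 is chr19:73602027-73602276 on the plus strand, that of Lamc1 chr13:68051987-68052236 on the minus strand and that of Itgax chr1:192149799-192150048 on the plus strand. The Itgax window lies before 1 RefSeq transcript and inside the gene's span, since another transcript starts further upstream. Capitals mark matches on either strand to the GC box GGGCGG, which Sp1 factors can bind, and to the AP-1 element TGANTCA.
Itgb1: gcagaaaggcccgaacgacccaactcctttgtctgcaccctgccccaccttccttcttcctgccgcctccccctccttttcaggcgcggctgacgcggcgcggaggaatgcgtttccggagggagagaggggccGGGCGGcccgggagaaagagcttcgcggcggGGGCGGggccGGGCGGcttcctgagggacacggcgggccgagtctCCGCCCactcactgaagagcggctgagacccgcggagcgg
Lamc1: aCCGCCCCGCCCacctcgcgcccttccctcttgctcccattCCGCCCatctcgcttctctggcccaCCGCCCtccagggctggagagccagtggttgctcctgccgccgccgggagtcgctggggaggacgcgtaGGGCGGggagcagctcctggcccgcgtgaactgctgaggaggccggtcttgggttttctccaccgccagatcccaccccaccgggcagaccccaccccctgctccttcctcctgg
Itgax: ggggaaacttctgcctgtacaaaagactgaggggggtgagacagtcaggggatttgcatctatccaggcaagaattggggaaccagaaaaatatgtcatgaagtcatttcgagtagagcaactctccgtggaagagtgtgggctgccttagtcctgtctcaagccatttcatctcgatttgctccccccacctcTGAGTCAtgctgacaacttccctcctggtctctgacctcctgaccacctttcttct
Itgb1 and Lamc1 hold 4 and 5 GC boxes in windows that are each 71.2% G or C, whereas Itgax holds 0 GC boxes and 1 AP-1 match, with 50.4% G or C. The first pair of GC boxes in Lamc1 share a base, and the others lie apart. A TATA box, TATAAA, was in none of these windows. Among all 33469 promoter windows of this length in the table, 30.5% held a GC box, 6.34% the AP-1 element and 12.9% TATAAA. The table held 25 of the 32 members, and these motifs were in 12, 2 and 2 of them. The arrays measured no binding there, and a match describes letters only.

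Itgb1 gave log2 signals of 9.13, 8.87, 8.93, 8.86, 8.87 and 9.13 in control replicates 1 to 6 and of 8.64, 8.74, 8.70, 8.81, 8.75 and 8.67 in PSC replicates 1 to 6. The diets did not overlap, with every PSC array below every control, and control replicates 1 and 6 stood above the other controls. The log2 fold change was -0.25 (SE 0.065, 95% interval -0.39 to -0.11, adjusted p = 0.0584 by limma). Its diets and those of Itgax were the 2 of 32 members, or 6.25%, that did not overlap, both lower in PSC, beside 2.19% of all genes in either direction, 1.48% lower and 0.71% higher.

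Lamc1 gave 7.47, 7.31, 7.25, 7.33, 7.13 and 7.20 in the controls and 7.05, 7.00, 7.10, 7.14, 6.85 and 6.93 in PSC-fed rats. The diets met only at control replicate 5, which lay at 7.13 just under PSC replicate 4. For Lamc1 the log2 fold change was -0.27 (SE 0.070, 95% interval -0.42 to -0.12, adjusted p = 0.0521 by limma).

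Itgax gave 5.18, 4.82, 5.10, 4.96, 4.93 and 4.90 in the controls and 4.81, 4.56, 4.77, 4.79, 4.66 and 4.49 in PSC-fed rats. Every PSC array lay below every control, though PSC replicate 1 and control replicate 2 were only 0.01 apart. For Itgax it was -0.30 (SE 0.077, 95% interval -0.47 to -0.14, adjusted p = 0.0512 by limma).

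Single arrays and settings moved these genes across the threshold. Without PSC replicate 4 all of Itgax, Lamc1 and Itgb1 passed as lower (3 members, adjusted p = 0.0408, 0.0362 and 0.0479 by limma), and without control replicate 2 Itgax passed (adjusted p = 0.0391). The count over all genes also went from 473 to 735 without PSC replicate 4 and to 531 without control replicate 2. In the other 10 fits without 1 array 0 members passed. Of 9 settings other than leaving out 1 array, Itgax passed as lower in 4, and Itgb1 and Lamc1 in 3 each.

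**Figure D3:**
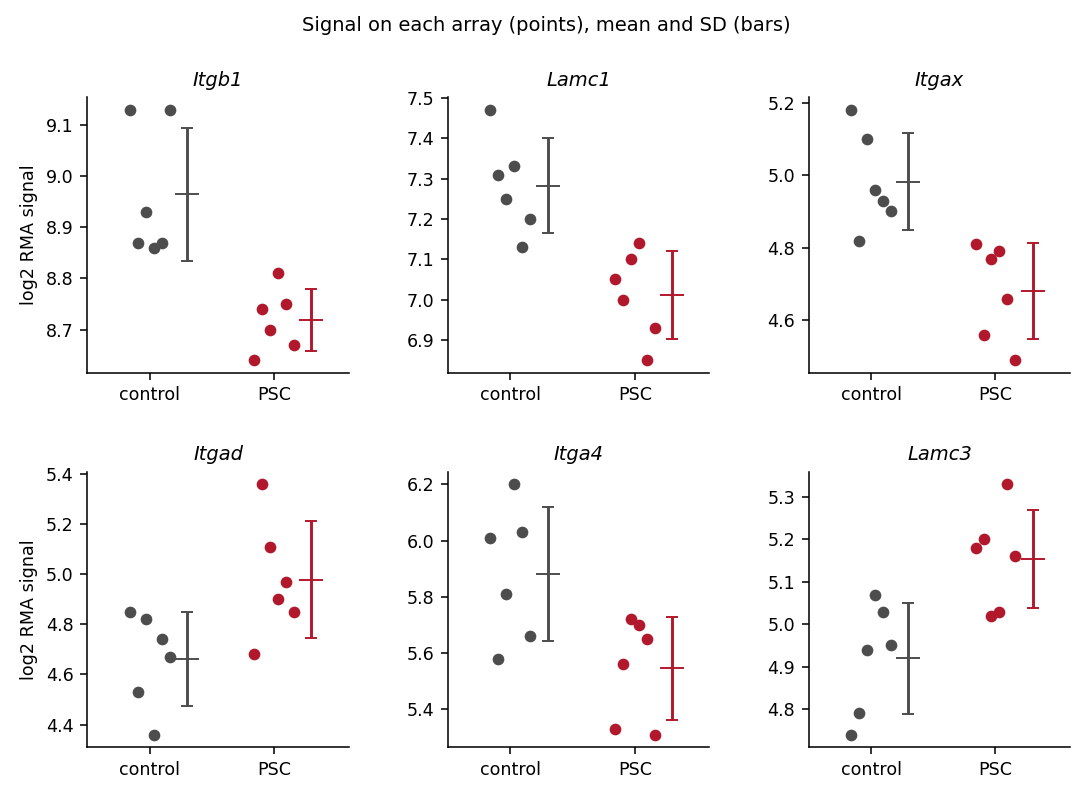
Log2 RMA signal of 6 members on every array (points, replicates 1 to 6 from left to right), with the mean and SD of each diet (bars, n = 6); each panel has its own axis, which does not start at 0. PSC arrays lie below every control for Itgb1 and Itgax, and the diets overlap for Lamc1, Itgad, Itga4 and Lamc3.

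The alpha chains that pair with Itgb1 had values of either sign, from -0.34 (Itga4) to 0.17 (Itga10). Itga1, which with Itgb1 forms a collagen and laminin receptor of stellate and endothelial cells, had a log2 fold change of 0.0017 (SE 0.055, 95% interval -0.11 to 0.12), with 8.59 to 8.80 in controls and 8.63 to 8.81 in PSC-fed rats. Within each array Itgb1 minus Itga1 lay between 0.18 and 0.54 in the controls and between -0.17 and 0.13 in PSC-fed rats. This contrast was picked after the values were seen and was not tested. Itga5, the alpha chain of the fibronectin receptor, had 7.44 to 7.75 (median 7.57) in controls and 7.10 to 7.60 (median 7.445) in PSC-fed rats. Its log2 fold change was -0.21 (SE 0.089, adjusted p = 0.214 by limma), with PSC replicates 2 and 5 lowest and 3 PSC arrays under every control. Without these 2 arrays it was -0.094 (SE 0.075, adjusted p = 0.607 by limma). Itga9, which binds tenascin and osteopontin among others, had 0.042, and median centring turned it to -0.0033. Itga8, a chain of stellate and smooth muscle cells that binds nephronectin, had -0.057.

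Itga4, the chain that lets lymphocytes and monocytes bind VCAM-1, had the most negative value among the members. Its log2 signals ran from 5.58 to 6.20 (median 5.91) in controls and from 5.31 to 5.72 (median 5.605) in PSC-fed rats, so that the diets overlapped and 3 PSC arrays lay below every control. For Itga4 the fit gave -0.34 (SE 0.11, 95% interval -0.57 to -0.10, adjusted p = 0.113 by limma). Itgb7, which pairs with Itga4 on gut-homing lymphocytes, had 0.058 (SE 0.071).

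The laminin-binding alpha chains lay near 0. Itga6, the commonest laminin receptor chain of epithelia and endothelium, ran from 6.90 to 7.06 (median 6.995) in controls and from 6.75 to 7.02 (median 6.905) in PSC-fed rats. Its log2 fold change was -0.093 (SE 0.058, adjusted p = 0.403 by limma). Itga3 and Itga7, a second epithelial chain and the chain of muscle, had -0.080 and 0.10. Itgb4, which pairs with Itga6 alone in the hemidesmosomes of epithelia, had 0.057, and quantile normalization once more and cyclic loess turned it to -0.0010 and -0.0061. Of these 3 alpha chains 0 passed at an unadjusted p below 0.05.

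Among the collagen-binding alpha chains Itga10, the chondrocyte chain, ran from 3.80 to 4.02 (median 3.955) in controls and from 3.82 to 4.44 (median 4.055) in PSC-fed rats, and PSC replicates 2 and 5 were highest. Its log2 fold change was 0.17 (SE 0.095, adjusted p = 0.338 by limma), and 0.033 (SE 0.070, adjusted p = 0.873) without these 2 arrays. Itga11, a fibroblast chain, and Itga2, a chain of platelets and epithelia, had -0.025 and -0.037. Itga2 spread most among the members' intervals, from 3.54 to 4.39 in controls and from 3.41 to 4.18 in PSC-fed rats.

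Itga2b, the platelet chain that binds fibrinogen, ran from 4.94 to 5.27 (median 5.19) in controls and from 5.15 to 5.45 (median 5.315) in PSC-fed rats, with 4 PSC arrays above every control. For Itga2b the fit gave 0.17 (SE 0.072, 95% interval 0.02 to 0.33, adjusted p = 0.2 by limma). The mean log2 signal of 4 measured platelet markers lay between 4.83 and 5.30 in controls and between 4.90 and 5.15 in PSC-fed rats, and 0 of the 4 passed.

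Leukocyte alpha chains that share the partner Itgb2 had values of either sign, and 0 of the 4 passed. Itgad, the chain of a macrophage subset, gave 4.85, 4.53, 4.82, 4.36, 4.74 and 4.67 in the controls and 4.68, 5.36, 5.11, 4.90, 4.97 and 4.85 in PSC-fed rats. PSC replicate 2 was highest, and 4 PSC arrays lay above every control while PSC replicates 1 and 6 did not. For Itgad the fit gave 0.32 (SE 0.11, 95% interval 0.08 to 0.55, adjusted p = 0.136 by limma), of the sign opposite to Itgax. On assembly GRCr8 Itgax lies between Itgam and Itgad in a row of related genes, and Itgax is listed there as a synonym of Itgad. Whether probes for these chains bind each other's transcripts was not tested. Within each array Itgad minus Itgax lay between -0.60 and -0.19 in the controls and between -0.13 and 0.80 in PSC-fed rats, again picked after the values were seen and not tested.

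Itgam, the alpha chain of the complement receptor of myeloid cells, had -0.083 (SE 0.099). Itgal, the lymphocyte chain that binds ICAM-1, had -0.043, and Itgb2 itself -0.018, with signs that turned under quantile normalization once more (0.0061 and 0.0375) and cyclic loess (0.0049 and 0.0269). Marker lists of blood and resident cells also had differences of either sign. Over all genes 46.1% of values were below 0 and 2.6% passed the threshold. The array gives no detection calls, so that no marker can be called absent. Kupffer cell markers averaged 5.91 to 7.03 in controls and 6.89 to 7.28 in PSC-fed rats, with 9 of 10 values above 0 and 1 of 10 past the threshold (Cd163). The lowest control mean came from control replicate 1 alone, and the other controls lay at 6.64 or above. Markers of monocytes and lipid-associated macrophages averaged 6.22 to 6.80 and 5.99 to 6.48, with 6 of 10 below 0 and 2 lower past the threshold (Fabp4 and Mmp12). T and NK cell markers averaged 4.49 to 4.76 and 4.72 to 4.91 (8 of 10 above 0, 1 past the threshold, Nkg7), B cell markers 4.67 to 4.79 and 4.82 to 5.07 (4 of 4 above 0, 0 past it), and neutrophil markers 3.65 to 3.84 and 3.64 to 3.86 (0 of 7 past it). The part of these cells in the integrin values was not tested.

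Among the other beta chains, Itgb5, a vitronectin receptor chain of many cells, had -0.037 (SE 0.062, 95% interval -0.17 to 0.10) at 8.28 to 8.58 over the 12 arrays. Itgb6, the epithelial chain that activates latent TGF-beta, had -0.14 (SE 0.073, adjusted p = 0.331 by limma) in the dim range of the array, from 3.75 to 4.16. Itgb8, which also activates TGF-beta, had 0.067, and -0.0080 and -0.0025 under quantile normalization once more and cyclic loess. Bile duct markers averaged 5.11 to 5.22 in controls and 5.01 to 5.16 in PSC-fed rats. Of the 8, 1 was lower past the threshold (Spp1, also an integrin ligand), beside 1.89% of all genes. The list had no common direction: 4 values were below 0 and 4 above it, from -0.63 for Spp1 to 0.27 for Krt19.

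The gamma chains of laminin had values of opposite sign, and neither passed. Lamc3, a gamma chain of narrower distribution than Lamc1, gave 4.74, 4.79, 4.94, 5.07, 5.03 and 4.95 in controls and 5.18, 5.20, 5.02, 5.03, 5.33 and 5.16 in PSC-fed rats. PSC replicates 3 and 4 lay among the controls and the other 4 above them. For Lamc3 the fit gave 0.23 (SE 0.073, 95% interval 0.08 to 0.39, adjusted p = 0.0997 by limma), against -0.27 for Lamc1. Lamc3 minus Lamc1 ran from -2.73 to -2.10 in controls and from -2.11 to -1.52 in PSC-fed rats, so that this contrast, chosen after the values were seen, met by 0.01.

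The alpha chains of laminin, which decide which receptor is bound, were close to 0. Lama5, the widest spread chain of adult basement membranes, ran from 4.64 to 4.87 (median 4.765) in controls and from 4.44 to 4.83 (median 4.625) in PSC-fed rats, and the fit gave -0.12 (SE 0.070, adjusted p = 0.355 by limma). Lama4, the endothelial chain, had -0.010 (SE 0.079), turned to 0.0485 by quantile normalization once more, and its other row had -0.083. Lama2, the chain of muscle and mesenchyme, had 0.035, and -0.010 after median centring. Lama1, chiefly an embryonic chain, had 0.13 (SE 0.080), and Lama3, an epithelial chain, 0.073.

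Of the beta chains of laminin, Lamb3, part of the epithelial laminin that anchors hemidesmosomes, ran from 3.81 to 4.45 (median 4.32) in controls and from 4.14 to 4.46 (median 4.345) in PSC-fed rats. Its log2 fold change was 0.082 (SE 0.10, adjusted p = 0.692 by limma). Lamb2, the beta chain of vessel and muscle laminins, had -0.018 (SE 0.076).

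Markers of stellate cells and fibroblasts, which make matrix in liver, stood beside these values: 13 of 15 were below 0, beside 46.1% of all genes, and 5 fell (Dcn, Col1a2, Tagln, Rgs5 and Col3a1), beside 1.89%. Their mean log2 signal lay between 6.78 and 6.96 in controls and between 6.44 and 6.75 in PSC-fed rats, without overlap. Endothelial markers averaged 6.97 to 7.08 and 6.92 to 7.13 with 0 of 8 past the threshold, and hepatocyte markers 11.75 to 11.83 and 11.69 to 11.88 with 0 of 6. Mesothelial markers averaged 4.70 to 5.01 and 4.66 to 4.88 with 1 of 5 lower past it (Krt8, -0.54). Their signs were mixed, with 2 values below 0 and 3 above it (Upk3b, Wt1 and Msln). The part of stellate cells in the values of Itgb1 and Lamc1 was not tested.

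**Figure D4:**
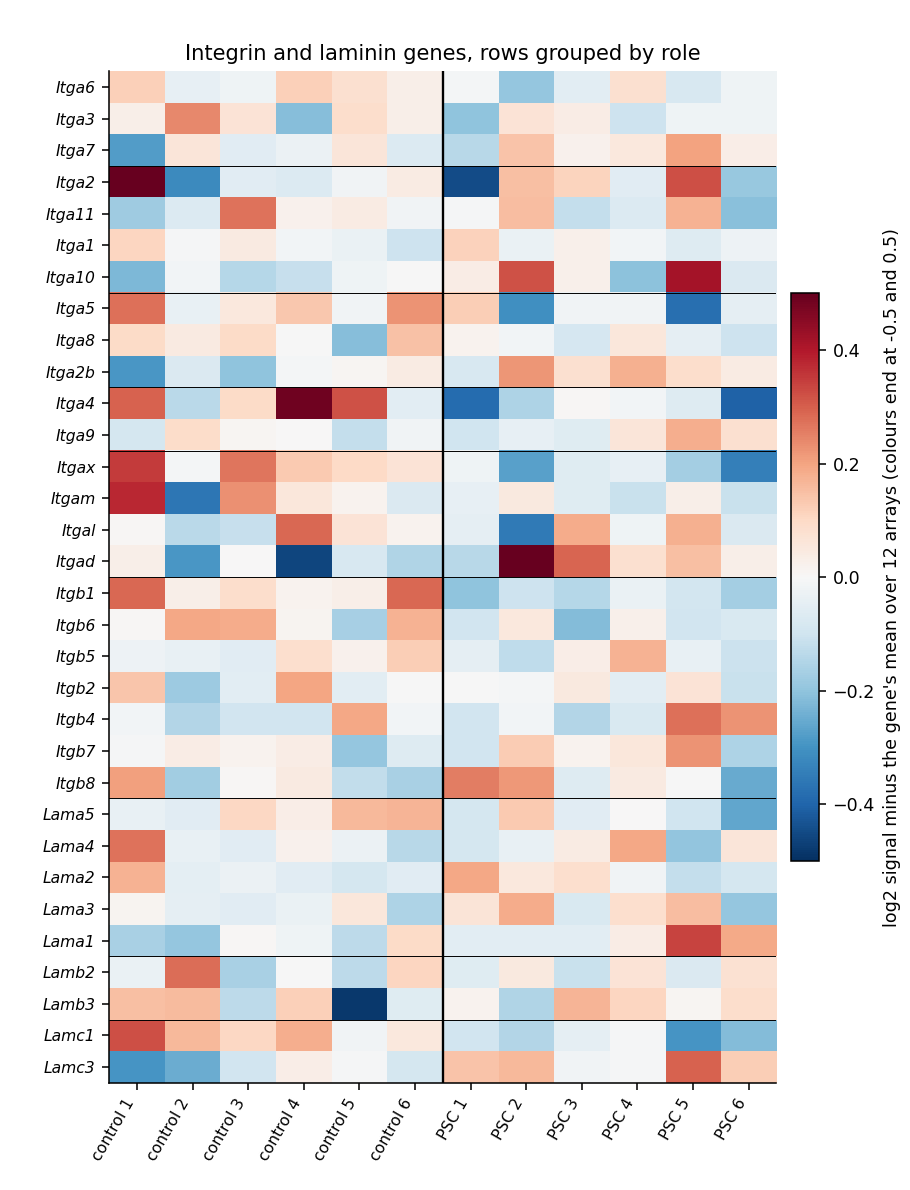
Log2 signal of each member minus its mean over the 12 arrays (colour, ending at -0.5 and 0.5), with arrays in columns and genes in rows grouped by role; the vertical line parts controls (left) from PSC-fed rats (right). The rows of Itgb1, Itgax and Lamc1 are mostly red left of the line and blue right of it, those of Lamc3 and Itgad are mostly the other way round, and most other rows show no split.

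Genes that work with integrins and laminins were read from the same fit. Of 81 measured partner genes in 4 lists, 3 rose and 3 fell, or 7.41% beside 2.6% of all genes, and the lists' make-up was chosen with earlier results of these data known. At an unadjusted p below 0.05, 25 were lower and 6 higher, beside 10.1% and 9.02% of all genes. The median log2 fold change over the 81 was -0.063.

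Of 11 receptors and partners for laminin other than integrins, 1 fell, beside 1.89% of all genes, and 10 did not pass. Sgcb, a sarcoglycan of the dystroglycan complex, went from 6.36 to 6.83 (median 6.655) in controls to 5.45 to 6.14 (median 5.83) in PSC-fed rats, without overlap. Its log2 fold change was -0.83 (SE 0.12, adjusted p = 0.0041 by limma), and it passed in all 12 fits without 1 array. Dag1, dystroglycan itself, and the tetraspanin Cd151, which binds laminin receptors, had -0.34 each (adjusted p = 0.142 and 0.0938 by limma). The list's median was -0.13, with 9 of 11 values below 0, beside 46.1% of all genes.

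Of 20 measured basement membrane partners 2 rose, beside 0.716% of all genes, and 18 did not pass. Smoc1, a calcium-binding matricellular protein of the SPARC family, ran from 7.95 to 8.42 in controls and from 8.38 to 8.85 in PSC-fed rats, and 5 PSC arrays lay above every control. Its log2 fold change was 0.41 (SE 0.088, adjusted p = 0.0282 by limma). Col4a4, a chain of the type IV collagen of kidney and lung membranes, ran from 5.20 to 5.53 and from 5.56 to 5.72, without overlap, with 0.27 (SE 0.064, adjusted p = 0.0378 by limma). When each array was left out in turn, Smoc1 still passed in 4 fits and Col4a4 in 2 of 12. The main type IV chain Col4a1 had -0.20 (adjusted p = 0.0944), and the laminin-to-collagen linker Nid1 -0.36 (SE 0.17, adjusted p = 0.276 by limma).

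Of 19 measured integrin ligands other than laminins 1 fell, beside 1.89% of all genes. It was Spp1, which encodes osteopontin and is also made by bile duct cells and macrophages. It ran from 5.16 to 6.08 (median 5.46) in controls and from 4.72 to 5.09 (median 4.94) in PSC-fed rats, without overlap, with -0.63 (SE 0.14, adjusted p = 0.0287 by limma). It still passed in 8 of 12 fits that each lacked an array. Mfge8, F11r and Icam1, ligands of vitronectin receptors and of leukocyte integrins, had -0.37, -0.27 and -0.37 (adjusted p = 0.0521, 0.0528 and 0.0771 by limma).

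Of 31 measured adaptors and kinases of integrin adhesions, 1 rose and 1 fell, beside 0.716% and 1.89% of all genes. Src, the tyrosine kinase, ran from 5.15 to 5.46 in controls and from 5.39 to 5.72 in PSC-fed rats, with 0.33 (SE 0.0745, adjusted p = 0.0349 by limma). Ptk2b, a focal adhesion kinase relative of blood and nerve cells, ran from 6.99 to 7.38 and from 6.29 to 7.19, with -0.51 (SE 0.12, adjusted p = 0.042 by limma). Leaving out each array in turn, Src still passed in 3 and Ptk2b in 2 of 12 fits. Negative values were found for 24 of the 31, beside 46.1% of all genes, among them vinculin (Vcl, -0.23) and filamin A (Flna, -0.28), which did not pass.

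**Figure D5:**
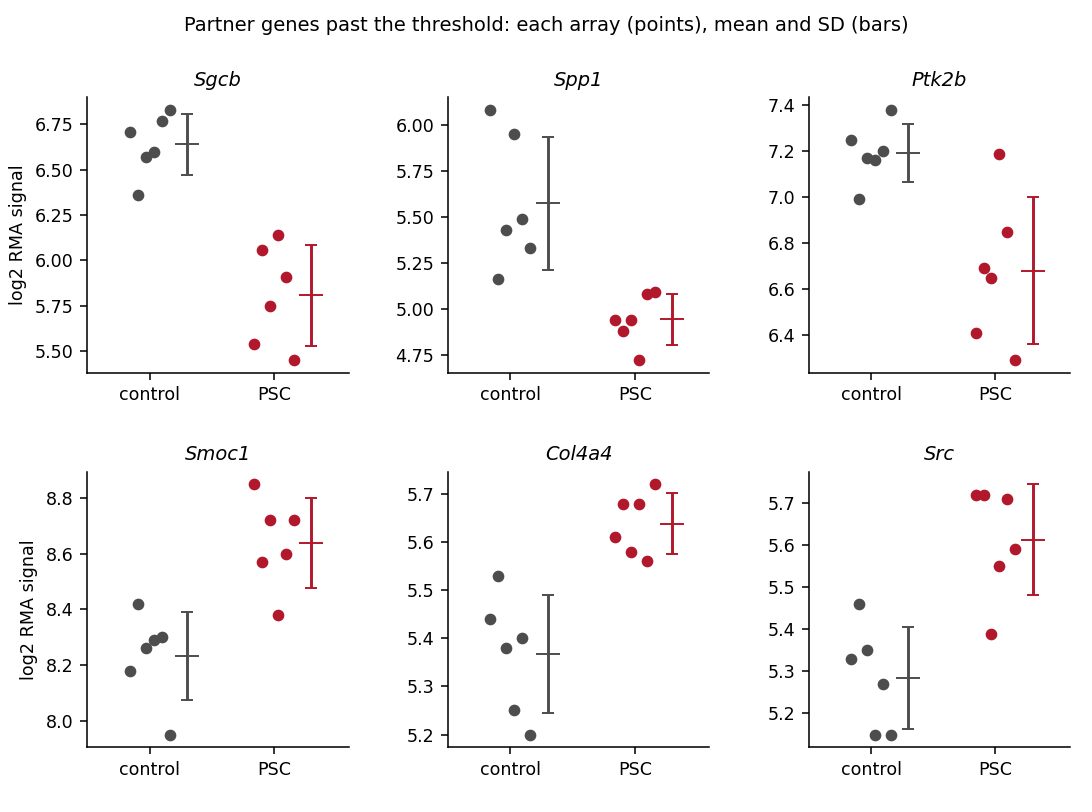
Log2 RMA signal on every array (points) with the mean and SD of each diet (bars, n = 6) for the 6 partner genes past the threshold; each panel has its own axis, which does not start at 0. The diets do not overlap for Sgcb, Spp1 and Col4a4, and they overlap for Ptk2b, Smoc1 and Src.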

How the data were processed

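Liver RNA of 12 rats, 6 per diet, was measured on 1 array each. The authors deposited 1 log2 value with 2 decimals for each transcript cluster. Per the submitters' processing notes these came from RMA in Affymetrix Expression Console, whose versions the sources used here do not give. RMA subtracts background, gives the probe values of all arrays 1 distribution and joins a cluster's probes, which can compress changes of dim genes. The deposited cluster values did not share 1 distribution exactly, with array medians of 4.71 to 4.85. Groups and replicate numbers came from the sample titles.

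Genes were named by the platform annotation: 18511 of 30347 clusters have 1 symbol, 575 several and 11261 none in the table used. All 32 members matched RefSeq (GRCr8) by gene number. Each gene was read from its cluster with the highest mean, and 18166 genes were fitted with limma 3.58.1 (R 4.3.3), with two-sided p-values adjusted by Benjamini-Hochberg across this whole set and called below 0.05. Intervals are limma's at 95%. The number of arrays limits the precision. The test was checked on simulated data.

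The members and lists were chosen with earlier results of these data known. Full values are given for members without overlap and for the member with the smallest p in each role, and from each partner list for members past the threshold; Itgad, Lamc3, Itga5 and further partners were added after their values were seen. Alternatives were all clusters, dropping the dimmest 0.25 of genes, quantile normalization, median centring, cyclic loess, a variance trend, the mean of clusters, weights per array, a block for the replicate number, other thresholds and leaving out each array. Leaving out PSC replicates 2 and 5 together was added later. Same-numbered arrays deviated together (correlation above 0.1) in 1 of 6 pairs, so the numbers were not taken as pairs. Figures were drawn with matplotlib 3.10.9.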

Additional observations from a re-analysis of the deposited data

Results flagged for a closer look

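Of 64 groups of 6 arrays (32 members in each diet), 1 held an array far from the rest. Control replicate 1 gave a log2 signal of 5.47 for Lama2, a laminin chain of muscle and mesenchyme, while the other controls lay between 5.21 and 5.27. The gap was 0.769 of the group's range, above Dixon's 95% critical value. Chance alone flags about 5% of such groups.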

How the results depend on the processing

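None of the 32 members passed as first fitted, with all transcript clusters, array weights, the mean of clusters or without PSC replicates 2 and 5. The count was 3 with dim genes left out or median centring (Itgax, Itgb1 and Lamc1) and 2 with a variance trend (Itgb1 and Lamc1). It was 1 with quantile normalization or cyclic loess (Itgax), and all these were lower. At an adjusted p below 0.1 it was 4 and at an unadjusted p below 0.05 it was 8. Without 1 array it lay between 0 and 3. Of all genes 473 passed, 72.5% of them lower, and 87.7% of the calls were lower after median centring. That count was 254 with all clusters, 1140 and 3470 at the looser thresholds and 225 without PSC replicates 2 and 5. It also rose to 664 (of 13624 genes) with dim genes left out, 666 with median centring and 685 with a variance trend. With quantile normalization and cyclic loess it was 422 and 423. Without 1 array it ran from 142 to 735, and it moved by over 1.5 times without control replicates 1, 3, 4, 5 and 6 (142, 252, 164, 298 and 188) and PSC replicates 1, 4, 5 and 6 (206, 735, 199 and 160). Of the partner genes 6 passed; the count was 1 with all clusters or without PSC replicates 2 and 5, 10 after median centring, and 14 and 31 at the looser thresholds. Without 1 array it ran from 1 to 11: 1 without control replicates 1 or 4 and PSC replicates 1 or 6, 2 without control replicates 3 or 6 and PSC replicate 5, 3 without control replicate 5 or PSC replicate 3, and 11 without PSC replicate 4. With the replicate number as a block the counts were 0 members, 94 of all genes and 1 partner gene (Sgcb); 1 control array correlated best with its own number. The cause of these moves was not tested.

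Of the members, 19 kept their sign under every setting. Median centring turned Itga1 (-0.0433), Itga9 (-0.0033) and Lama2 (-0.010). Quantile normalization and cyclic loess turned Itgal (0.0061 and 0.0049), Itgb2 (0.0375 and 0.0269), Itgb4 (-0.0010 and -0.0061), Itgb8 (-0.0080 and -0.0025) and Lama4 (0.0485 and 0.0357). Array weights turned Lama4 (0.0021), and leaving out PSC replicates 2 and 5 turned Lama4 (0.0467) and Itgb7 (-0.015). Without 1 array the values ran from -0.0213 to 0.023 for Itga1, -0.063 to 0.027 for Itga11, -0.1047 to 0.066 for Itga2, -0.085 to 0.023 for Itgal, -0.0563 to 0.0197 for Itgb2, -0.0493 to 0.0433 for Lama4, -0.0527 to 0.0353 for Lamb2 and -0.0063 to 0.1217 for Lamb3, so that each of these took both signs. Dim members are limited by signal over background, and 3 of 32 lay under the lower quartile of all genes' mean signals (3.97). That quartile is not a measured background level. Itgax and Itgad, with means of 4.83 and 4.82 over the 12 arrays, lay no higher than the array medians of 4.71 to 4.85.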

Other observations

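Itgam, a myeloid alpha chain, spread from 4.36 to 5.10 in controls (SD 0.25) and from 4.61 to 4.77 in PSC-fed rats (SD 0.068), and Lamb3 likewise had an SD of 0.25 in controls and 0.11 in PSC-fed rats. Itga10 spread the other way, with an SD of 0.088 in controls and 0.24 in PSC-fed rats. These spreads were not tested.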
